A study of Mus musculus with 6 samples.

Results

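Acute-phase genes and the signalling chain that runs from the cytokine receptor subunit gp130 to the transcription factor Stat3 were examined in heart muscle cells 48 hours after doxorubicin. The 10 genes, taken by name from the 24972 rows of the deposited table, were the acute-phase genes Saa3, Lcn2, Serpina3n and Timp1, the feedback inhibitor Socs3, the receptor chains Osmr, Il6ra, Lifr and Il6st (which encodes gp130), and Stat3 itself. All 6 mice carried the MX1gfp reporter, so no comparison with unmodified mice was possible. The controls were 3 mice given phosphate-buffered saline into the peritoneum (vehicle). The other 3 mice were given a single dose of 25 mg per kg of doxorubicin, an anthracycline cancer drug that is toxic to the heart, by the same route. RNA came from ventricular cells released with collagenase, and cardiomyocytes were separated by letting them sink, a step that enriches them but is no sort. Sex and age are not given in the labels, and 1 library stands for 1 mouse as far as the labels tell.

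IL-6 family cytokines bind receptor chains that all pair with gp130. Interleukin-6 first binds Il6ra, oncostatin M uses Osmr, and leukaemia inhibitory factor uses Lifr. Janus kinases bound to these chains then phosphorylate Stat3, which enters the nucleus and switches on genes that include Socs3, whose product binds gp130 and Janus kinases and damps the signal. The same pathway drives the acute-phase response, best known in liver, and in the heart it is known for roles in cardiomyocyte growth and survival.

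Promoter letters are shown for the 4 genes in which a searched motif was found, because the data concern genes that this pathway can switch on. They are the 250 bases before a RefSeq start (GRCm38.p6, equal to mm10), 5′ to 3′ on the strand of the gene. A window was at hand for all 10 genes. For Socs3 and Saa3 the window lies inside the span of the gene given below, so that start is not the outer end of the gene. For Serpina3n the window overlaps the span. Capitals mark the match, and positions count back from the base before the start as -1. The motifs, searched on both strands, were TTCNNNGAA for STAT factors, TTNNGCAA for C/EBP factors and, for NF-kB, GGG and TTTCC with any 2 bases between them. The spellings for C/EBP and NF-kB were chosen with the windows in view.
Socs3, chr11:117969367-117969616, minus strand, STAT match from -154 to -146: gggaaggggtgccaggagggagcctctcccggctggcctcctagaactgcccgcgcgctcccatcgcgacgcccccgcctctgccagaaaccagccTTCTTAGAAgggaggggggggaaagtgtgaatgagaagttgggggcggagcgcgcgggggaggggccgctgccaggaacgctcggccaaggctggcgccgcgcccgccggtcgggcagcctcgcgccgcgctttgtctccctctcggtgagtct
Saa3, chr7:46715677-46715926, minus strand, C/EBP match from -99 to -92: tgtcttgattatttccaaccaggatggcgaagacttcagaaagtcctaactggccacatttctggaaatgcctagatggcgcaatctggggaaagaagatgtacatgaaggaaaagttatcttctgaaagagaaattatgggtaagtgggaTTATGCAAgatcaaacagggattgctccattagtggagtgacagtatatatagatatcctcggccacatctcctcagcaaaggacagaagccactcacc
Lcn2, chr2:32387740-32387989, minus strand, C/EBP match from -216 to -209: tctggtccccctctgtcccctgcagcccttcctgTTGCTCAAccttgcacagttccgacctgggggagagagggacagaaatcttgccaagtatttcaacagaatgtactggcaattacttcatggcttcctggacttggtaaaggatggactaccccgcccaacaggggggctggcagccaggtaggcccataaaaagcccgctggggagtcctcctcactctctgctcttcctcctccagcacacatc
Serpina3n, chr12:104406458-104406707, plus strand, NF-kB match from -171 to -162: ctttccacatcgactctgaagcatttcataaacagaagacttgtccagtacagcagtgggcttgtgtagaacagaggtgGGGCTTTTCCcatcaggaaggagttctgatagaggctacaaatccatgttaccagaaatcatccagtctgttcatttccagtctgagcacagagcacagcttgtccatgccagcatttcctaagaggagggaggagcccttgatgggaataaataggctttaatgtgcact
Over all 32851 windows of this length, 7.02% held the STAT letters, 9.56% the C/EBP letters and 1.41% the NF-kB letters. A match is a description of the letters and not a bound site, and the absence of one in the other 6 genes says nothing about the factors.

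Each value is a gene's normalized read count, and log2 differences are doxorubicin minus vehicle after adding 1 to each value. Library totals were 5410780 to 7500386 normalized counts. The reads behind them, estimated from the spacing of low values, came to 7710000 to 11400000 per vehicle library and 3670000 to 6170000 per doxorubicin library, so depth and treatment cannot be told apart. Doxorubicin replicate 1 stood apart from its group: limma, a linear model fitted to all tested genes, called 0 genes with all 6 libraries and 5127 without that library. All 8 cardiomyocyte markers checked were present in every library, and their summed level ran from 660848 to 812039 with vehicle, against 601166, 196996 and 165496 with doxorubicin. In bulk RNA, fewer cells of a type and less RNA per cell cannot be told apart. Scaling every library to the same total moved the median log2 difference of all genes from -0.00 to 0.29.

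The 10 genes were chosen by their normalized counts in these same doxorubicin and vehicle libraries, so their differences are given as a description, with no test. In doxorubicin replicates 2 and 3, 8 of the 10 genes were above every vehicle library, where 31.6% of the 12477 genes with a mean of at least 10 did the same and 32.9% were below every vehicle library. Doxorubicin replicate 1 stood apart from that pair. In 7 of the 10 genes it lay inside the range of the vehicle libraries (36% of all tested genes), and in Lcn2, Osmr and Lifr it was above the highest vehicle library by at most 1.05 times. Those 3 genes were therefore the ones whose groups did not overlap, a state that 19.2% of tested genes shared in the direction of doxorubicin. All 10 passed the minimum mean of 10 over the 6 libraries, but Saa3 passed only through its doxorubicin values.

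**Figure D1:**
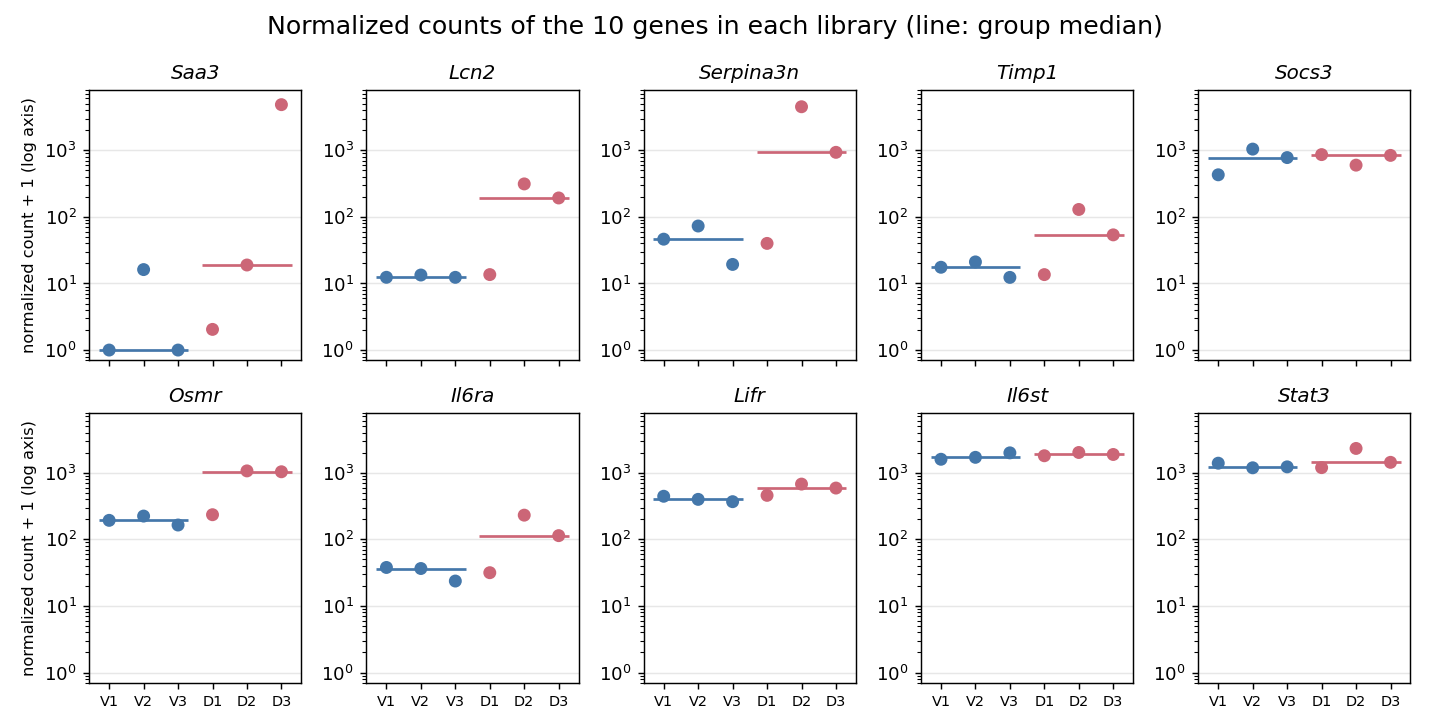
Normalized counts plus 1 of the 10 genes on a log axis, with 1 point per library (V1 to V3, vehicle; D1 to D3, doxorubicin) and a line at each group's median. Serpina3n is highest in D2 at 4504, Saa3 is high only in D3 at 4841, and Il6st lies between 1594 and 2015 throughout.

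The receptor chains differed from each other. Osmr, a chain of the oncostatin M receptor (chromosome 15, 6813568 to 6874968, GRCm38), had normalized counts of 192, 223 and 163 with vehicle and 234, 1066 and 1034 with doxorubicin. Replicates 2 and 3 lay at 5.53 and 5.37 times the vehicle mean of 193 ± 29.7 (SD, n = 3), close to each other, while replicate 1 lay at 1.21 times. The log2 difference was 1.73, from 1.36 without doxorubicin replicate 2 to 2.45 without replicate 1, with an SD of 1.25 among the doxorubicin libraries.

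Il6ra, the interleukin-6 binding chain (chromosome 3, 89869324 to 89913196), was the least abundant of the 4 receptor chains per kilobase of transcript. Its normalized counts were 36.8, 35.5 and 22.7 with vehicle and 30.6, 230 and 113 with doxorubicin. Replicate 2 was thus 2.04 times replicate 3, and replicate 1 sat inside the vehicle range. The log2 difference was 1.56, from 0.91 without doxorubicin replicate 2 to 2.34 without replicate 1. GENCODE M21 places an antisense gene over Il6ra, and without strand its reads could not be told apart.

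Lifr, the chain for leukaemia inhibitory factor, lies 216 kb from Osmr on the same chromosome (7090610 to 7197489), with 3 RefSeq genes between them. Its normalized counts were 443, 398 and 367 with vehicle and 457, 675 and 588 with doxorubicin. The groups did not overlap, and the log2 difference was 0.50. Il6st, the shared chain gp130 (chromosome 13, 112464070 to 112506860), had 1594, 1704 and 1990 normalized counts with vehicle and 1800, 2015 and 1881 with doxorubicin. These groups overlapped, and the log2 difference of 0.11 was smaller than the SD of 0.16 among the vehicle libraries. It was 0.41 with equal totals and 0.34 after quantile normalization.

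Ratios between transcripts within a library do not depend on a factor common to all genes of that library. The method of normalization is not given, so factors that differ by gene could still enter the ratios. The ratio of Osmr to Lifr was 0.433, 0.560 and 0.445 with vehicle and 0.511, 1.58 and 1.76 with doxorubicin. Per kilobase of transcript, Osmr had 194 and 188 normalized counts in doxorubicin replicates 2 and 3, above Lifr at 69.9 and 60.9, and it was below Lifr in the other 4 libraries. The ratio of Osmr to Il6st was 0.120, 0.131 and 0.0820 with vehicle and 0.130, 0.529 and 0.550 with doxorubicin. The ratio of Il6ra to Il6st was 0.0231, 0.0208 and 0.0114 with vehicle and 0.0170, 0.114 and 0.0599 with doxorubicin. In each of the 3 ratios doxorubicin replicate 1 fell inside the vehicle range.

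**Figure D2:**
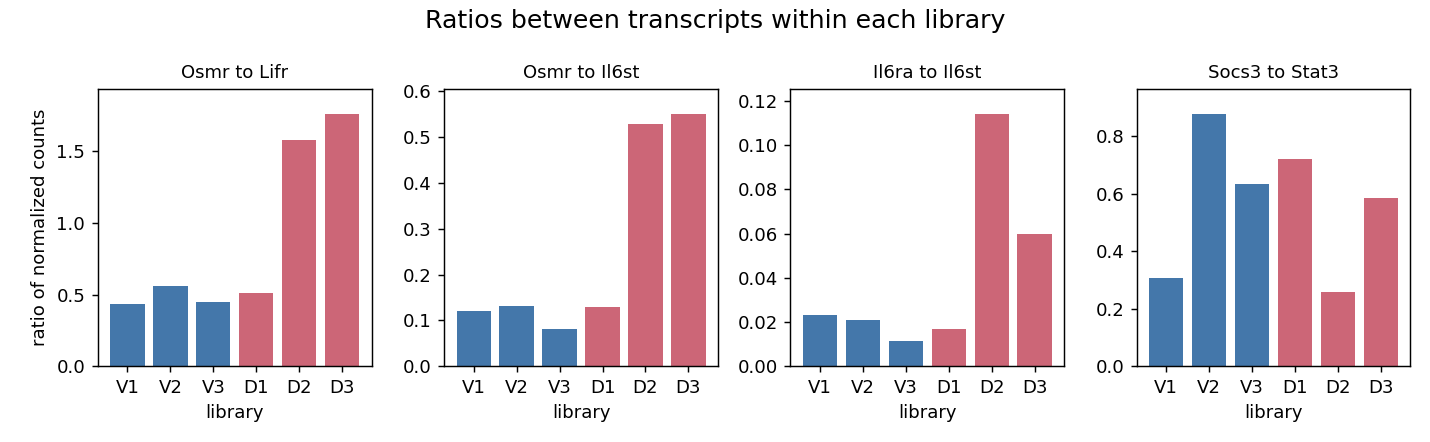
Ratios of normalized counts between transcript pairs within each library (V1 to V3, vehicle; D1 to D3, doxorubicin), with axes that start at 0. Osmr to Lifr is 1.58 in D2 and 1.76 in D3 against at most 0.560 elsewhere, whereas Socs3 to Stat3 overlaps between the groups.

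Stat3, the transcription factor of the pathway (chromosome 11, 100886806 to 100939594), had 1391, 1187 and 1225 normalized counts with vehicle and 1194, 2317.5 and 1433 with doxorubicin. Only doxorubicin replicate 2 was well above the others, at 1.83 times the vehicle mean of 1268 ± 109 (SD, n = 3), and replicate 3 exceeded the highest vehicle library by 1.03 times. The log2 difference was 0.32, and 0.05 without doxorubicin replicate 2. In GENCODE M21 the end of Stat3 overlaps that of Stat5a on the other strand, and the use of strand in counting is not given in the sources used here.

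Socs3, the feedback inhibitor and a direct Stat3 target whose promoter letters above hold the STAT match (chromosome 11, 117966079 to 117970336), did not follow Osmr and Il6ra. It had 427, 1040 and 776 normalized counts with vehicle and 860, 597 and 837 with doxorubicin, so all 3 doxorubicin values lay between the lowest and the highest vehicle library. The log2 difference of 0.11 was smaller than the SD of 0.65 among vehicle libraries, and it was -0.25 without vehicle replicate 1. The ratio of Socs3 to Stat3 was 0.307, 0.877 and 0.633 with vehicle and 0.720, 0.258 and 0.584 with doxorubicin, lowest in the library with the most Stat3.

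Saa3, Serpina3n and Lcn2 had the largest log2 differences of the 10 genes, and Timp1 lay below Osmr and Il6ra. Serpina3n, a secreted inhibitor of serine proteases (chromosome 12, 104406646 to 104414334), had 45.2, 71.9 and 18.3 normalized counts with vehicle and 38.9, 4504 and 930 with doxorubicin. Replicate 2 was 99.7 times and replicate 3 was 20.6 times the vehicle mean, whereas replicate 1 was inside the vehicle range. The log2 difference was 3.78, from 2.26 without doxorubicin replicate 2 to 5.67 without replicate 1, with an SD of 3.47 among the doxorubicin libraries. Serpina3n belongs to a cluster of near-identical genes, among which the authors' counting could have divided reads.

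Lcn2, a secreted protein that binds bacterial iron carriers (chromosome 2, 32384637 to 32387739), had 11.4, 12.4 and 11.4 normalized counts with vehicle and 12.6, 311 and 191 with doxorubicin. The vehicle values rested on about 13 to 18 estimated reads each. Replicates 2 and 3 were 26.6 and 16.3 times the vehicle mean, and replicate 1 passed the highest vehicle library by 1.02 times, on about 12 estimated reads. The log2 difference was 2.88, and without doxorubicin replicate 1, 2 or 3 it was 4.27, 2.01 or 2.36.

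Timp1, an inhibitor of matrix metalloproteinases (chromosome X, 20870166 to 20874737), had 16.5, 20.1 and 11.3 normalized counts with vehicle and 12.6, 128 and 52.7 with doxorubicin. Replicate 2 was 8.03 times and replicate 3 was 3.30 times the vehicle mean, and the log2 difference was 1.46, from 0.70 without doxorubicin replicate 2 to 2.33 without replicate 1. Timp1 lies inside the neuronal gene Syn1, which is on the other strand. Syn1 itself stayed low, from 3.78 normalized counts upward to 12.0.

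Saa3, the serum amyloid A that mice make outside the liver (chromosome 7, 46711998 to 46719615), was high in a single library. It was listed at 0 in vehicle replicates 1 and 3 and had 15.2 normalized counts in vehicle replicate 2. The doxorubicin libraries had 1.04, 17.9 and 4841 normalized counts. Doxorubicin replicate 3 was 319 times the highest vehicle library, on about 3282 estimated reads, whereas replicate 2 exceeded that library by 1.18 times. The order of the pair was thus opposite to that of Serpina3n, Lcn2 and Timp1, for which replicate 2 was 4.84, 1.63 and 2.43 times replicate 3. For Saa3 replicate 3 was 270 times replicate 2, and its log2 difference of 4.50 was 1.30 without replicate 3 and 6.90 without replicate 1.

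Vehicle levels were also compared after division by transcript length. Per kilobase of the longest GENCODE transcript with a RefSeq match, Socs3 had 293 ± 120 normalized counts, Stat3 had 210 ± 18.0 and Il6st had 203 ± 23.6 (SD, n = 3 throughout), and these 3 did not differ beyond their spread. Lifr at 41.7 ± 3.95 and Osmr at 35.1 ± 5.42 followed, with ranges that touched each other. Serpina3n at 21.9 ± 13.0, Timp1 at 18.1 ± 4.97 and Lcn2 at 12.8 ± 0.645 overlapped too, Serpina3n also with Osmr, and Il6ra was lowest of the genes detected in every library, at 3.67 ± 0.906. In doxorubicin replicate 2, Serpina3n led with 2182 normalized counts per kilobase, above Stat3 at 384. In replicate 3, Saa3 led with 8722, above Serpina3n at 451.

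The vehicle mice varied as well. Vehicle replicate 2 had the highest vehicle value of 6 genes, among them Saa3, Lcn2, Serpina3n and Socs3, and vehicle replicate 3 had the lowest value of 6.

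Y-linked transcripts marked 3 libraries, namely doxorubicin replicate 2 with vehicle replicates 1 and 2, and Xist marked the rest. Within the Y-linked class the log2 differences of Osmr, Lcn2, Serpina3n and Il6ra were 2.36, 4.60, 6.28 and 2.64, and within the class with Xist they were 1.59, 2.05, 3.32 and 1.34. Saa3 had the other order, with 2.24 and 6.64. Stat3 had 0.85 and 0.09. Socs3 had -0.16 and 0.13, and Il6st had 0.29 and -0.11, so neither of these kept a direction. Each class holds a single library of 1 treatment, which allows no test. The class with Xist averages doxorubicin replicate 1, which stood apart from its group, with replicate 3, whereas the Y-linked class holds replicate 2 alone. The sizes in the 2 classes therefore cannot be told apart from differences between these libraries.

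Genes outside the 10 were drawn from 7 lists of the pathway, 105 genes in all, of which 68 were tested. By limma, 0 of the 68 passed a Benjamini-Hochberg adjusted p of 0.05, as did 0 (0%) of all 12477 genes, while 28 of the 68 and 4485 of all had an unadjusted p under 0.05. The groups did not overlap in 22 that were higher after doxorubicin (32.4%, against 19.2% of tested genes) and in 6 that were lower (8.82%, against 22.6%). Of the 68, 8 passed the minimum mean only through their doxorubicin values. The median log2 difference was 0.49, where that of all tested genes was -0.00. Without doxorubicin replicate 1, limma passed 29 of the 68 as higher and 7 as lower, where 19.3% and 21.8% of all tested genes passed.

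Ligands of the family were scarce. Of 10, only Ctf1, Clcf1 and Ebi3 reached a mean of 10. Il6 itself had 0.673, 2.99 and 0 normalized counts with vehicle and 4.03, 1.23 and 4.13 with doxorubicin, all within a few reads. Osm, a ligand of Osmr, had 3.81, 4.79 and 6.95 with vehicle and 7.39, 15.6 and 19.4 with doxorubicin. Each doxorubicin value of Osm exceeded every vehicle value, but the mean was under the minimum for the test.

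Lif had 11.4, 3.83 and 3.49 normalized counts with vehicle and 1.05, 21.7 and 11.9 with doxorubicin, so the groups overlapped. Ctf1, which encodes cardiotrophin-1, had 55.4, 40.1 and 54.3 with vehicle and 44.4, 23.2 and 19.7 with doxorubicin (log2 difference -0.83, SE 0.35, limma adjusted p 0.130). Without doxorubicin replicate 1, the library seen to stand apart, Ctf1 was lower by limma, at a log2 difference of -1.17 (adjusted p 0.0112). In that fit 21.8% of all tested genes passed as lower. Ebi3, a subunit of interleukin-27, was at 50.1 in doxorubicin replicate 3 and at 2.61 to 6.87 elsewhere. Clcf1 stayed between 5.88 and 19.2, Cntf at or under 6.70, and Il11 and Il27 at or under 1.21.

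Other cytokine receptors formed a list of 9 that was not limited to chains that pair with gp130. Of these, 8 were tested, with a median log2 difference of 1.04. The groups did not overlap in 3 that were higher, Lepr, Il10ra and Il21r, and in 2 that were lower, Il11ra1 and Il10rb. These are 37.5% and 25% of the 8, against 19.2% and 22.6% of all tested genes, and Il21r and Csf3r passed the minimum mean only through their doxorubicin values. Il21r, the receptor of interleukin-21, had a log2 difference of 1.74 (SE 0.59, limma adjusted p 0.0927). Il10rb, a chain of the interleukin-10 receptor and the most abundant of this list, went from 1174, 1304 and 1356 normalized counts with vehicle to 951, 607 and 714 with doxorubicin (log2 difference -0.78, SE 0.19, adjusted p 0.0859). With a minimum mean of 50, which leaves few members, the median of the list turned to -0.23.

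The 10 Janus kinases and signal carriers had a median log2 difference of -0.05, near that of all genes. Jak1, the kinase bound to gp130 and the most abundant of them, had 1445, 1369 and 1622 normalized counts with vehicle and 1424, 1379 and 1309 with doxorubicin (log2 difference -0.11, SE 0.15, limma adjusted p 0.626). With equal totals it was 0.20, where this scaling moved the median of all genes by 0.299. Gab2, an adaptor, was higher in all 3 doxorubicin libraries, at 355, 537 and 405 against 281 to 295 (log2 difference 0.55, SE 0.18, adjusted p 0.0878). Grb2, another adaptor, was lower in all 3, with a log2 difference of -0.28 that was 0.02 with equal totals.

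Of the 14 other negative regulators, 13 were tested, with a median log2 difference of 0.13. The groups did not overlap in 4 that were higher, namely Socs4, Ptpn1, Ptpn6 and Pias3, and in Socs7 and Ptpn11, which were lower. These are 30.8% and 15.4% of the 13, against 19.2% and 22.6% of all tested genes. Ptpn6, a phosphatase of blood cells, had 39.9, 36.3 and 32.2 normalized counts with vehicle and 58.0, 69.7 and 235 with doxorubicin (log2 difference 1.43, SE 0.49, limma adjusted p 0.0948). Ptpn11, a phosphatase that binds the same site of gp130 as Socs3, was at 2030 to 2518 with vehicle and at 1835 to 2004 with doxorubicin (log2 difference -0.27, adjusted p 0.277). With equal totals that difference was 0.04.

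The 20 other Stat3 targets were mixed. Of 18 tested, 13 had a positive and 5 a negative log2 difference, with a median of 0.33. The 5 genes whose groups did not overlap were all higher after doxorubicin: Bcl3, Bcl2l1, Icam1, Il4ra and Tnfrsf1a. They make up 27.8% of the 18, against 19.2% of all tested genes. Bcl2l1, which encodes the survival protein Bcl-xL, had 322, 256 and 248 normalized counts with vehicle and 357, 1669 and 1585 with doxorubicin (log2 difference 1.84, SE 0.55, limma adjusted p 0.0859). Its levels in doxorubicin replicates 2 and 3 were 6.06 and 5.75 times the vehicle mean, where Osmr had 5.53 and 5.37 times. Fos, the most abundant of the list, went the other way in those libraries, at 1265 and 1947 against 2083 to 4837 with vehicle, and its groups overlapped.

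Further targets were singled out after their values were seen. Cebpd, a transcription factor of the acute-phase response, had 218, 289 and 154 normalized counts with vehicle and 245, 1397 and 684 with doxorubicin. Pim1, a kinase, had 255, 404 and 308 with vehicle and 252, 295 and 319 with doxorubicin, and stayed in the vehicle range save for replicate 1, just below it. Vegfa, a growth factor for vessels, was 1851, 2832 and 2397 with vehicle and 2037, 372 and 606 with doxorubicin. Without doxorubicin replicate 1, limma passed 7 of the 18 as higher, Cebpd and Bcl2l1 among them, and Fos, Ccnd1 and Vegfa as lower. Of all tested genes, 19.3% passed as higher and 21.8% as lower in that fit.

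Of 29 other acute-phase genes, 10 were tested and 9 of these had a positive log2 difference, with a median of 1.89. In doxorubicin replicates 2 and 3 these 9 were above every vehicle library (31.6% of all tested genes were). Without replicate 1 limma passed 9 as higher, where 19.3% of all tested genes passed. C3, a complement protein and the most abundant, had 1987, 1470 and 1152 normalized counts with vehicle and 1914, 11143 and 8376 with doxorubicin (log2 difference 1.91, SE 0.62, limma adjusted p 0.0878). C4b, another complement protein, had 85.5, 97.5 and 94.9 with vehicle and 160, 2139 and 580 with doxorubicin (log2 difference 2.65, SE 0.79, adjusted p 0.0859). The groups did not overlap for C4b, Lbp, Cd14 and Trf, all higher, which is 40% of the 10 against 19.2% of all tested genes. Of the 10 tested, Hp and Itih4 passed the minimum mean only through their doxorubicin values. Among the untested genes, Ptx3 and Itih3, named after their values were seen, reached 41.2 and 21.6 normalized counts in doxorubicin replicate 2, and 8 others, Alb and the fibrinogen chains included, were listed at 0 in all 6 libraries.

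Relatives of the acute-phase members gave 6 tested genes, of which Serpina3c, Serpina3g and Serpina3m passed the minimum mean only through their doxorubicin values. The remaining 3, Timp2, Timp3 and Timp4, were higher in every doxorubicin library than in any vehicle library, as were 19.2% of all tested genes. Timp4, the inhibitor of metalloproteinases typical of heart, had 316, 516 and 243 normalized counts with vehicle and 648, 2344 and 2809 with doxorubicin (log2 difference 2.25, SE 0.55, limma adjusted p 0.0859). Timp3, the most abundant, had 2115, 2299 and 1870 with vehicle and 2846, 10528 and 12011 with doxorubicin (log2 difference 1.77, SE 0.52, adjusted p 0.0859). Both were higher in doxorubicin replicate 3 than in replicate 2, the reverse of Timp1. Serpina3m, named after its values were seen, was listed at 0 in 4 libraries and had 96.7 and 1.48 normalized counts in doxorubicin replicates 2 and 3.

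**Figure D3:**
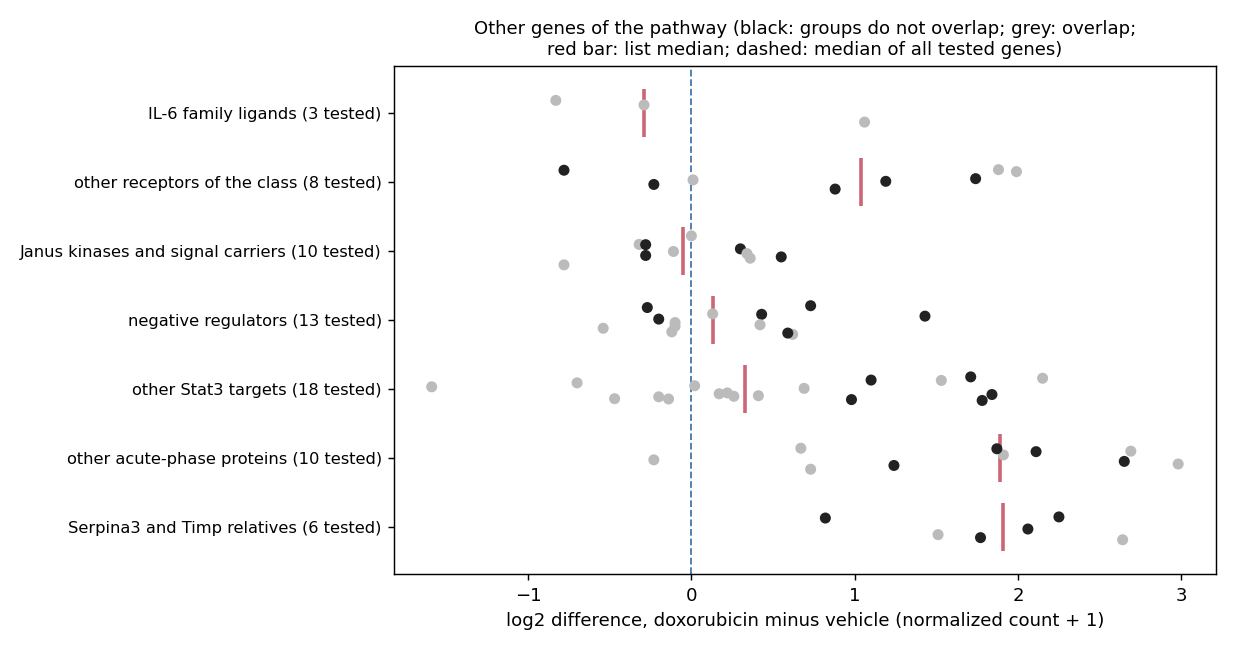
Log2 difference (doxorubicin minus vehicle, normalized count plus 1) of each tested pathway gene outside the 10, by list. Black points are genes whose groups do not overlap, red bars are list medians and the dashed line is the median of all tested genes, -0.00. The medians run from -0.29 for ligands to 1.91 for Serpina3 and Timp relatives. Of the 6 tested relatives, 3 passed the minimum mean only through their doxorubicin values, as did 1 of the 3 tested ligands, so the direction of these was fixed by the filter.

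Markers of other cells differed in which libraries held them. The summed level of 8 neutrophil markers was 19.4 to 37.0 normalized counts with vehicle and 78.2, 680 and 520 with doxorubicin. Of the 6 that were tested, 5 passed the minimum mean only through their doxorubicin values, so the direction of those 5 was fixed by the filter. Ly6g was listed at 0 in 4 libraries and reached at most 1.48. S100a8 and, among macrophage markers, Adgre1 were singled out after their values were seen. Lcn2 is itself carried in neutrophil granules. S100a8, a cytosolic protein of neutrophils and monocytes, had 14.5, 130 and 107 with doxorubicin against 1.78 to 5.71 with vehicle.

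The 8 macrophage markers summed to 2292 to 2432 with vehicle and to 3719, 6625 and 14217 with doxorubicin. In all 8 the groups did not overlap, with doxorubicin higher, a state that 19.2% of all tested genes shared. Adgre1, which encodes the macrophage protein F4/80, had 1818 normalized counts in doxorubicin replicate 3 and 173 in replicate 2. Not all of the list had that order: Mrc1 had 778 in replicate 2 and 670 in replicate 3, Cd163 had 795 and 623, and C1qa had 1122 and 1130. The 8 fibroblast markers summed to 6236 to 8275 with vehicle and to 8639, 22816 and 16406 with doxorubicin. Dcn, a matrix proteoglycan, carried most of that sum, and the other 7 summed to 3725 to 5369 with vehicle and to 5526, 4744 and 5080 with doxorubicin. Col3a1, a collagen named after its values were seen, as were Dcn, Mrc1, Cd163 and C1qa, was at 740 and 1184 in doxorubicin replicates 2 and 3 against 1412 to 2268 with vehicle. Of these 8 fibroblast markers 7 had a positive log2 difference, and Col3a1 was the exception. In 3, Pdgfra, Dcn and Tcf21, the groups did not overlap, all higher (37.5%, against 19.2% of all tested genes). In doxorubicin replicates 2 and 3, Pdgfra was at 3.66 and 2.50 times the vehicle mean and Tcf21 at 2.76 and 2.59 times. The endothelial sum was 1.53, 1.52 and 1.96 times the vehicle mean in doxorubicin replicates 1 to 3. Replicate 1 held the highest sums of erythroid, atrial and lymphocyte markers, at 6.09, 2.89 and 2.62 times, where replicates 2 and 3 had 0.172 and 0.290, 0.745 and 1.40, and 0.184 and 0.458 times. The 4 mesothelial markers summed to 161 to 330 and to 308, 663 and 577. The 5 hepatocyte markers summed to at most 30.1 in any library, and Alb and Apoc3 were at 0 in all. The part of these cells in the values of the 10 genes was not tested.

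**Figure D4:**
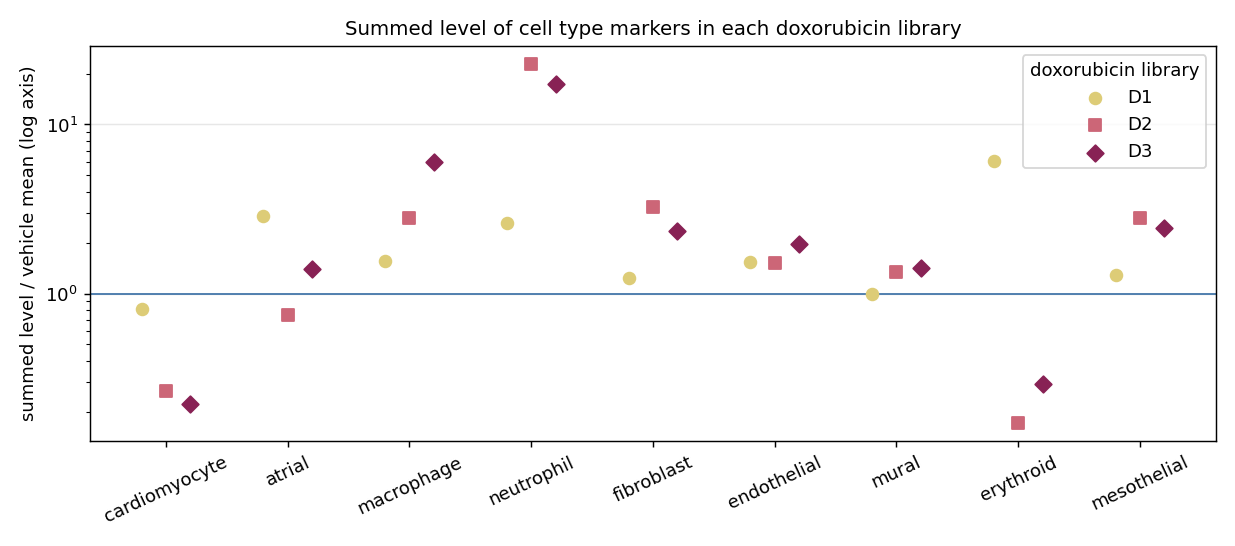
Summed level of each marker list in doxorubicin replicates 1 to 3 (D1 to D3), divided by the mean of the vehicle libraries, on a log axis with a line at 1. Neutrophil markers stand at 22.8 times in D2 and 17.5 times in D3, macrophage markers at 5.99 times in D3, and cardiomyocyte markers at 0.266 and 0.223 times in D2 and D3.

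The genes most alike to each of the 10 were ranked by Pearson's r of log2 values over the 6 libraries, which share depth and marker levels as given above. For Osmr they were Irak3 (r = 0.9993), Ttll7 (0.9987) and Fgfr3 (0.9982). For Lcn2 they were Apod (0.9988), Crispld2 (0.9978) and Cmklr1 (0.9976). Serpina3n had Il6ra first (0.9966), followed by Lox (0.9965) and Thbs2 (0.9962). Lox also led for Il6ra (0.9992) and Timp1 (0.9951). Saa3 had Clec4e first (0.9929), a receptor of myeloid cells with 613 normalized counts in doxorubicin replicate 3 and at most 12.1 elsewhere. Socs3 had Senp7 first (0.9971), and that gene varied among the vehicle libraries in the same order, at 83.5, 148 and 125.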

How the data were processed

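RNA was sequenced from cardiomyocytes of 3 vehicle and 3 doxorubicin mice, grouped by sample title. Per the labels, reads were aligned to mm10 with RefSeq genes in RNAseq Alignment 2.0.2 and compared in RNA-seq Differential Expression 1.0.1, and the submitters' processing notes name STAR 2.6.1a and Salmon. The deposited signal is the authors' normalized count per gene, while no source used here gives the method of normalization, the counting tool or the use of strand. Of the low values of a library, 80.0% to 92.5% lay within 0.1 step of a whole multiple of the worth of 1 read. Whole reads were therefore not recovered, no count test was used, and read numbers are estimates.

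Values plus a pseudocount of 1 were taken to log2, and the 12477 genes with a mean of at least 10 entered a two-sided test in limma 3.58.1 (R 4.3.3) with a mean-dependent prior and Benjamini-Hochberg adjustment at 0.05. The script was tested on simulated data. The members, lists and alternatives were chosen with earlier results of these data known. Named by rule were the 10 genes, all ligands (1 is not reported here) and, per list, the most abundant gene (by mean normalized count, not divided by length) and those with the largest difference either way among genes whose groups did not overlap. The 3 genes most alike each member were ranked by Pearson's r, and r is given without a test. Where the text says so, a gene was named after its values were seen. Coordinates and promoters are from RefSeq GRCm38.p6, and transcript lengths and overlaps are from GENCODE M21. Protein sequences were not used here. P-values measure the spread between libraries, and the labels do not say whether other sources of variation were shared. Figures used matplotlib 3.10.9 in Python 3.11.15.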

Additional observations from a re-analysis of the deposited data

How the results depend on the processing

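The number of genes that limma called depended on a single library. With all 6 libraries it was 0 in each direction at pseudocounts of 0.5 and 8, without a filter, with a minimum mean of 50, after scaling to equal totals, after quantile normalization, without the mean-dependent prior and with the replicate number as a block. Leaving out each library in turn gave 0 to 5127 genes, 0 to 2409 higher and 0 to 2718 lower. The highest numbers came without doxorubicin replicate 1, and removing doxorubicin replicate 2 gave 1 lower gene. Deviations of same-numbered libraries correlated at -0.13, 0.03 and -0.09, and those of other pairs at -0.18 to 0.22. With 3 libraries per group, these values cannot decide whether the replicate numbers pair the libraries. The replicate block gave 0 calls, with 3708 genes at an unadjusted p under 0.05 against 4485 without it.

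Of 379 recomputed differences of named genes, 9 changed sign and 10 others moved by more than the spread between replicates, and the cause was not tested. With equal totals Il6st, Lifr, Gab2 and Il10rb were 0.41, 0.80, 0.85 and -0.48, and after quantile normalization Il6st and Ptpn11 were 0.34 and -0.04. The remaining 4 were Timp1, Il6st, Il6ra and Stat3 in the Y-linked class, at 2.75, 0.29, 2.64 and 0.85. Leaving out 1 library at a time gave Socs3 (0.11) a range of -0.25 to 0.39, Clcf1 a range of -0.57 to 0.21 and Ebi3 a range of -0.06 to 1.67. The same gave the Janus kinase median a range of -0.14 to 0.01, the negative regulator median -0.01 to 0.24 and the log2 ratio of Socs3 to Stat3 -0.64 to 0.23. Socs3 was -0.25 without vehicle replicate 1 and -0.16 in the Y-linked class, and Il6st (0.11) was -0.11 in the class with Xist. Clcf1 and Ebi3 turned to 0.21 and -0.06 without doxorubicin replicate 3. With equal totals Grb2, Jak1 and Ptpn11 turned to 0.02, 0.20 and 0.04, and with quantile normalization Jak1 was 0.10. List medians changed sign for ligands without a filter (0.40), for other receptors with a minimum mean of 50 (-0.23) and for Janus kinases with equal totals (0.25), with quantile normalization (0.05) and without vehicle replicate 3 (0.01). For negative regulators the median was -0.10 with a minimum mean of 50, -0.01 without doxorubicin replicate 1 and -0.01 without vehicle replicate 3. The ratio of Socs3 to Stat3 (log2) was 0.11 when vehicle replicate 2 was left out and 0.23 when doxorubicin replicate 2 was. At this depth the vehicle values of Lcn2, Timp1 and Il6ra rest on about 13 to 58 estimated reads.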

Other observations

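Saa3 stood first among the genes that set doxorubicin replicate 3 apart. Its value there was 270 times the highest of the other 5 libraries, rank 1 of 12476 genes with a value elsewhere, and 1 further tested gene, Serpinb2, named after its values were seen, was listed at 0 in all the others. The next in that order were Il1a at 212 times, Acod1 at 195, Cxcl3 at 128, Gpr84 at 103, Ccl5 at 86.8, Il1rn at 67.9, Marco at 63.2, Clec4e at 50.7 and Slc7a11 at 42.9. These genes passed the minimum mean only through doxorubicin replicate 3. Their multiples divide by low values. The highest other value was 1.93 normalized counts for Il1a and Cxcl3 and 1.20 for Gpr84 and Marco, which is within a few reads. Il1a, Acod1, Cxcl3, Il1rn and Marco are genes known from activated macrophages. None of the top 10 in doxorubicin replicate 2 was among them.

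In doxorubicin replicate 2, Serpina3m ranked first at 65.4 times the highest other library, followed by Jaml at 13.3, Cdo1 at 10.9 and Tmem252 at 10.7 times. The highest other value of Serpina3m was 1.48 normalized counts in doxorubicin replicate 3, where 1 estimated read was worth about 1.48. The first 10 also held Serpina3c at 10.4 times, Mt2 at 7.17 times and Serpina3n at 4.84 times. Of the genes named here, Serpina3m, Jaml, Tmem252 and Serpina3c passed the minimum mean only through doxorubicin replicate 2, so the filter fixed that they were high there. As given above, the authors' counting could have divided reads among the Serpina3 genes. Doxorubicin replicate 1, in which Saa3, Serpina3n and Timp1 lay in the vehicle range, was led by haemoglobin genes, with Hbb-bt at 5.43 times and Hba-a1 at 4.19 times, and by the atrial gene Myl7 at 3.13 times. The genes of these orders were ranked after the data were seen, and no test was made.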
